A study of Homo sapiens with 4 samples.

Results

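The mitotic G2/M genes are 53 genes whose products carry cells through G2 and mitosis, among them cyclins, spindle checkpoint kinases, centromere and kinetochore proteins, kinesins and spindle pole proteins. They were chosen by gene symbol from a list, and every symbol was found, giving 53 of the 29833 genes in the deposited table. The list was drawn up with earlier results of these data known. They were followed in Reh-6-MPR cells, a derivative of Reh, a long-established line from a human B-cell acute lymphoblastic leukemia. The derivative was made resistant to 6-mercaptopurine (6-MP), a purine analog used in leukemia therapy, by passage in increasing concentrations of the drug, and was kept free of 6-MP before the experiment. All 4 libraries came from these cells, labelled WT in genotype. Each treatment has 1 library, collected after 48 h in PBS as vehicle, in 4 mM histidine, in 1.0 μg/mL 6-MP, or in both agents at these doses, called the combined treatment below. The comparisons ask how expression differs when both agents are given, relative to either agent alone and to no agent. The parental Reh line was not analysed here, so each value describes 1 resistant line.

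In a dividing cell, cyclin B bound to CDK1 drives entry into mitosis, and the Aurora kinases, kinesins and spindle pole proteins then build the spindle. The spindle checkpoint holds the cell until every kinetochore is attached, after which CDC20 activates the anaphase-promoting complex (APC/C), a ubiquitin ligase that marks cyclin B and securin for destruction. Most of these genes are transcribed in G2 and M, with complexes that contain MuvB, B-MYB or FOXM1 acting at a promoter element known as the cell cycle genes homology region (CHR), often next to CCAAT boxes bound by NF-Y.

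Expression was deposited as FPKM, meaning reads scaled by gene length and by library depth. The reads behind the values were recovered from the FPKM steps, and the totals they are divided by ran from 12899122 reads in the combined library to 15486376 in the histidine library. Fold changes are differences of log2(FPKM + 1), which understate the change of low genes. They are given for the 12750 genes whose mean FPKM reached 1, and a gene was called where its log2 fold change was 1 or more or -1 or less. No replicate exists, so no p-value can be given, and each comparison describes 2 libraries. Log2 read ratios carry no pseudocount, and their 95% intervals (exact Clopper-Pearson, from the recovered reads) cover counting error only. The 3 comparisons of the combined treatment share the combined library and are not independent of each other. That library stood apart in other ways: it had the fewest reads, the most genes above 0 (25443, against 23635 to 23978 in the other libraries), and a median log2 fold change over all tested genes of 0.13 against vehicle, 0.13 against 6-MP and 0.11 against histidine. The cell type label was checked with marker lists. Of 10 B-lineage markers, 9 were present and tested, with a summed FPKM of 1370 to 1500. T-lineage markers (2 of 6 present) summed to 0.0447 to 0.278 and erythroid markers (3 of 5 present) to 0.159 to 0.492. Stromal markers (1 of 5 present, COL1A1) ran from 0.869 to 2.04, and myeloid markers (5 of 6 present, of which only MPO passed the filter) from 27.4 to 44.7, both highest in the combined library. Their part in the results was not tested.

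Most mitotic G2/M genes were expressed above the median gene, with 49 of the 52 tested members above it with vehicle. The members' median FPKM was 31.6 with vehicle, 32.7 with histidine and 31.9 with 6-MP, and 24.5 for the combined treatment. Over all tested genes the median was 6.14, 6.27, 6.18 and 7.23 in the same order. A filter on low values was passed by 52 of the 53 members, with PRC1 left out. Together the 53 genes took 1.02% of the reads with vehicle, 1.0% with histidine, 0.977% with 6-MP and only 0.763% in the combined library. The combined library was the lowest by a margin larger than any difference among the other libraries, although single members departed from this in both directions. Lower expression of a G2/M gene in such a bulk sample can mean fewer cells in G2 and M or less RNA per cell, and these cannot be told apart here.

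Against vehicle, 7 of the 52 tested members fell past the threshold with the combined treatment, where 1.51% of all tested genes did. Against 6-MP, 8 members fell (background 1.2%), and against histidine, 7 fell (background 1.4%). Since the members were chosen with earlier results of these data known, counts set beside a background are descriptions and no test of the list. The 6 genes that fell in all 3 comparisons were CDC20, PIF1, HMMR, AURKA, CCNB1 and KIF20A, and 0.698% of all tested genes did so. Over protein-coding genes alone, the backgrounds were 0.76% against vehicle and 0.51% in all 3 comparisons. BUB1 was called against vehicle and 6-MP, and CENPA against 6-MP and histidine. In the opposite direction, KIFC1 rose past the threshold against 6-MP, where 4.82% of all tested genes did. No member was called higher against vehicle (background 5.01%) or against histidine (background 4.15%). The 52 members had a median log2 fold change of -0.38 against vehicle, -0.32 against 6-MP and -0.34 against histidine, and 47 of them lay below the median of all tested genes against vehicle. With the libraries scaled to an equal median ratio, these medians were -0.53, -0.47 and -0.47, and 11 members were lower past the threshold against vehicle, where 2.16% of all tested genes were.

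Smaller differences went the same way in most members, without passing the threshold. Whether an interval excludes 0 depends on the reads of a gene. The members had a median FPKM of 31.6 with vehicle, against 6.14 over all tested genes, so the backgrounds of the intervals are not matched in depth. The interval of the read ratio lay below 0 in 38 members against vehicle (background 20.8%), in 36 against 6-MP (background 21.2%) and in 38 against histidine (background 22.1%). It lay above 0 in 6, 9 and 8 members in the same order, against backgrounds of 42.7%, 42.2% and 41.2%. In 35 members it lay below 0 in all 3 comparisons (16.6% of all tested genes). In 6 members, SKA1, SKA3, KIFC1, ANLN, GTSE1 and FOXM1, it lay above 0 in all 3 (34.3% of all tested genes), although after median ratio scaling only 2 members (SKA1 and SKA3) kept an interval above 0 against vehicle. The combined library was the lowest of the 4 libraries for 38 members (28.8% of all tested genes) and the highest for 9 (53.8% of all tested genes).

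**Figure D1:**
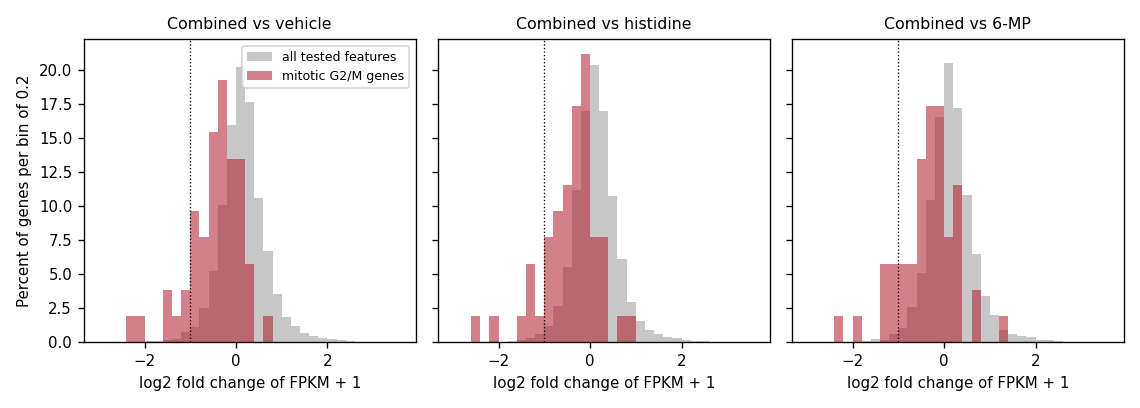
Percent of genes in each bin of log2 fold change (FPKM + 1, bins of 0.2) for the combined treatment against vehicle, histidine and 6-MP, for the 52 tested mitotic G2/M genes (red) and all 12750 tested genes (grey), 1 library per treatment. The members' medians are -0.38, -0.34 and -0.32 in that order, those of all tested genes are 0.13, 0.11 and 0.13, and the dotted line marks the threshold of -1.

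The promoters of the members were looked at for the CHR and CCAAT letters, since these mark the promoter type that G2/M genes are known for. RefSeq promoter sequences (GRCh38.p14, 250 bases before to 50 after each start) were matched by symbol for 45 of the 53 members, using for each gene the start nearest to the deposited position. BUB3, TTK, UBE2C, AURKA, BIRC5, TPX2, CDCA2 and FOXM1 were not matched. CHR was searched with the letters TTTGAA. Counted together with these letters were those of a known variant, TTTAAA, and of a rarer variant of the element, TTCGAA. For the box named CCAAT its own letters were used, and every search covered both strands. A CHR and a CCAAT match can share bases, and each was counted. CHR letters were present in 39 of the 45 promoters (86.7%), against 16.4% of the promoters of 8156 other tested protein-coding genes and 25.1% of all 35116 promoters. CCAAT letters were present in 34 (75.6%), against 37.9% and 34.6%. Both were present in 31 (68.9%), against 6.98% and 9.7%. All 7 matched members that fell past the threshold had both, as did 24 of the 38 remaining ones. This contrast depends on counting the variants together. The letters TTTGAA alone were present in 4 of the 7 and in 29 of the 38. A link between the letters and the fall was not tested. Below are 170 bases of these promoters, ending 24 bases after the RefSeq start, 5′ to 3′ on the strand of the gene, with CHR and CCAAT matches on either strand in capitals. The first 7 belong to members that fell past the threshold and the last 3 to members with little change.
PIF1 (minus strand, chr15:64825623-64825792): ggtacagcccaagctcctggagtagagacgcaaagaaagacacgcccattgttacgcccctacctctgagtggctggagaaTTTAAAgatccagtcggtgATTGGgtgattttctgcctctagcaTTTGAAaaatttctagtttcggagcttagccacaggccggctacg
CDC20 (plus strand, chr1:43358836-43359005): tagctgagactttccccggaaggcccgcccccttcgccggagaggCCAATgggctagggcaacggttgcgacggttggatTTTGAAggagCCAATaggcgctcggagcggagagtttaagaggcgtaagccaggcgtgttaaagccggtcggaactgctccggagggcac
HMMR (plus strand, chr5:163460487-163460656): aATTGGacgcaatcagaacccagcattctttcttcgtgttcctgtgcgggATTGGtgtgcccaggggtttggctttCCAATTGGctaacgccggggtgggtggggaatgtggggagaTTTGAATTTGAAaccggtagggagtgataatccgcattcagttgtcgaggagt
CCNB1 (plus strand, chr5:69167005-69167174): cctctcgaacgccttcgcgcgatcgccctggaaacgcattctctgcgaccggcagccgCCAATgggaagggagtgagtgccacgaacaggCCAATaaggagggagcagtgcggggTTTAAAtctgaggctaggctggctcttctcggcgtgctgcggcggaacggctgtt
KIF20A (plus strand, chr5:138178967-138179136): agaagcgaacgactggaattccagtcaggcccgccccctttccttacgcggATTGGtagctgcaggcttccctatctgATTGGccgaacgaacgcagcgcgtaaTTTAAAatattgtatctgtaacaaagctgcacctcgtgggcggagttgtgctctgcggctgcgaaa
CENPA (plus strand, chr2:26785911-26786080): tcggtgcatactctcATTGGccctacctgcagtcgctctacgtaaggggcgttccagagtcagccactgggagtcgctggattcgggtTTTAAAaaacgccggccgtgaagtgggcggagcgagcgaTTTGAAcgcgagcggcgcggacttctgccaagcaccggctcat
BUB1 (minus strand, chr2:110678039-110678208): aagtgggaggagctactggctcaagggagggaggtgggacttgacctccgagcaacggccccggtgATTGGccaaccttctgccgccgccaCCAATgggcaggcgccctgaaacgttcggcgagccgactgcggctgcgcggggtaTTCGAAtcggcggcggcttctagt
AURKB (minus strand, chr17:8210225-8210394): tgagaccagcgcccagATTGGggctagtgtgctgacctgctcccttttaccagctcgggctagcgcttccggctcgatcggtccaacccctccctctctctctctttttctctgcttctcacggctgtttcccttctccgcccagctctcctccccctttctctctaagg
NDC80 (plus strand, chr18:2571412-2571581): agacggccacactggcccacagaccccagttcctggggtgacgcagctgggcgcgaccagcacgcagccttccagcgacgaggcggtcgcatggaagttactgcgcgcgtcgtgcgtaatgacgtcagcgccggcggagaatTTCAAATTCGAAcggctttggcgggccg
ESPL1 (plus strand, chr12:53268154-53268323): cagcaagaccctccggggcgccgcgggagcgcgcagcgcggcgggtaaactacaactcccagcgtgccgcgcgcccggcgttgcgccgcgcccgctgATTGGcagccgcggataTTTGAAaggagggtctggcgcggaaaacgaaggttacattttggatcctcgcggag

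The match nearest the start in these windows was at position -30 in CCNB1, -20 in PIF1, -22 in HMMR and -41 in KIF20A, counted from the RefSeq start to the first base of the CHR letters. ESPL1, which encodes separase and hardly differed between libraries, had CHR letters at position -31 and a CCAAT match. NDC80 had CHR letters at position -3 and no CCAAT match, and AURKB had a CCAAT match and no CHR letters. Neither was found in the matched promoter of CDC25B, CDC25C or TACC3. Only the start nearest to the deposited position was used, so these genes may hold the letters at another start. In windows chosen after the positions had been seen, CHR letters fell between -75 and 50 in 37 members (82.2%) and in 5.27% of the other tested genes, and CCAAT letters between -150 and 0 in 33 members (73.3%) and in 28.8%. Among the printed windows, those of HMMR, KIF20A, CENPA and AURKB lie wholly inside the deposited gene span, so their starts are not its 5′ end. Which start these cells use was not tested. A match is a description of the letters and not a measured binding site.

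Among the cyclins, CDK1 and genes of mitotic entry, CCNB1 fell and the other 6 members stayed inside the threshold. Over these 7 genes the median was -0.51 on the log2 scale against vehicle, -0.47 against 6-MP and -0.38 against histidine. CCNB1 (ENSG00000134057, chr5:69167135-69178245), the B-type cyclin that activates CDK1 for mitotic entry, had an FPKM of 103 with vehicle, 102 with histidine, 105 with 6-MP and 41.5 in the combined library. The first 3 libraries lay close together and the combined library was at 40.3% of vehicle. Its log2 fold change was -1.29 against vehicle, -1.32 against 6-MP and -1.28 against histidine, and its log2 read ratio to vehicle was -1.31 (95% interval -1.4 to -1.22). CDC25B (ENSG00000101224, chr20:3786772-3806121), a phosphatase that removes inhibitory phosphates from CDK1, had an FPKM of 32.4, 32.7, 32.3 and 31.8 in the vehicle, histidine, 6-MP and combined libraries, with a log2 read ratio to vehicle of -0.03 (-0.12 to 0.07). For CDC25B the interval included 0 in all 3 comparisons of the combined treatment, and with median ratio scaling its log2 fold change against vehicle was -0.18. Between these extremes, and named after their values had been seen, CCNB2 had a log2 fold change of -0.79 against vehicle, CCNA2 of -0.51 and CDCA3, which takes part in degradation of the WEE1 kinase, of -0.54. CDK1 itself was at an FPKM of 71.6 with vehicle, 62.4 with histidine, 61.1 with 6-MP and 58.5 in the combined library. Its fold change of -0.29 against vehicle shrank to -0.06 against 6-MP. CDC25C, a second phosphatase of CDK1, was at an FPKM of 7.13 in the combined library and 5.43 to 6.57 in the others. Its log2 read ratio to vehicle was 0.12 (-0.11 to 0.35), and -0.04 with median ratio scaling.

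The 5 spindle checkpoint genes were all lowest in the combined library, but only BUB1 passed the threshold. Their median log2 fold change was -0.23 against vehicle, -0.24 against 6-MP and -0.18 against histidine. BUB1 (ENSG00000169679, chr2:110637528-110678063), a kinetochore kinase that recruits other checkpoint proteins, had an FPKM of 42.2 with vehicle, 38.6 with histidine, 41.4 with 6-MP and 19.7 in the combined library. Its log2 fold change was -1.06 against vehicle and -1.03 against 6-MP. Against histidine, which was the lowest of the other 3 libraries, it was -0.93 and therefore not called, with a log2 read ratio of -0.97 (-1.05 to -0.88). BUB3 (ENSG00000154473, chr10:123154402-123170467), the binding partner of BUB1 and BUBR1, had an FPKM of 63.8, 66.3, 65.6 and 59.9 with vehicle, histidine, 6-MP and the combined treatment. Its log2 read ratio to vehicle was -0.09 (-0.14 to -0.04), a difference beyond counting error on 6320 to 8392 reads. BUB1B, which encodes BUBR1, TTK, the MPS1 kinase, and MAD2L1, which encodes MAD2, had log2 fold changes of -0.39, -0.23 and -0.14 against vehicle. Annotated exons of a readthrough gene cover 10.2% of the exon bases of BUB1B on the same strand, so its reads may be split.

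The genes of the anaphase-promoting complex and sister separation had the lowest median of the role groups, -0.82 against vehicle, -0.75 against 6-MP and -0.79 against histidine, over 4 genes. CDC20 (ENSG00000117399, chr1:43358981-43363203), the APC/C activator that the checkpoint inhibits, had an FPKM of 157 with vehicle, 148 with histidine, 144 with 6-MP and 35.3 in the combined library. With vehicle it was the member with the highest FPKM, and the combined library held 22.5% of that level. The log2 fold change was -2.12 against vehicle, and the log2 read ratio was -2.15 (-2.26 to -2.05) on 4511 and 915 reads. PTTG1, which encodes securin, the inhibitor of separase, had an FPKM of 79.0, 74.7, 73.8 and 40.7 in the same order and a log2 fold change of -0.94 against vehicle. UBE2C, a ubiquitin-conjugating enzyme of the APC/C, had one of -0.69. ESPL1 (ENSG00000135476, chr12:53268299-53293638), separase itself, was at an FPKM of 21.9 with vehicle, 23.8 with histidine, 21.8 with 6-MP and 22.6 in the combined library. Its log2 read ratio to vehicle was 0.04 (-0.03 to 0.12), so the combined library lay within counting error of vehicle on the FPKM scale. Median ratio scaling gave a log2 fold change of -0.11, with an interval of the read ratio below 0.

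**Figure D2:**
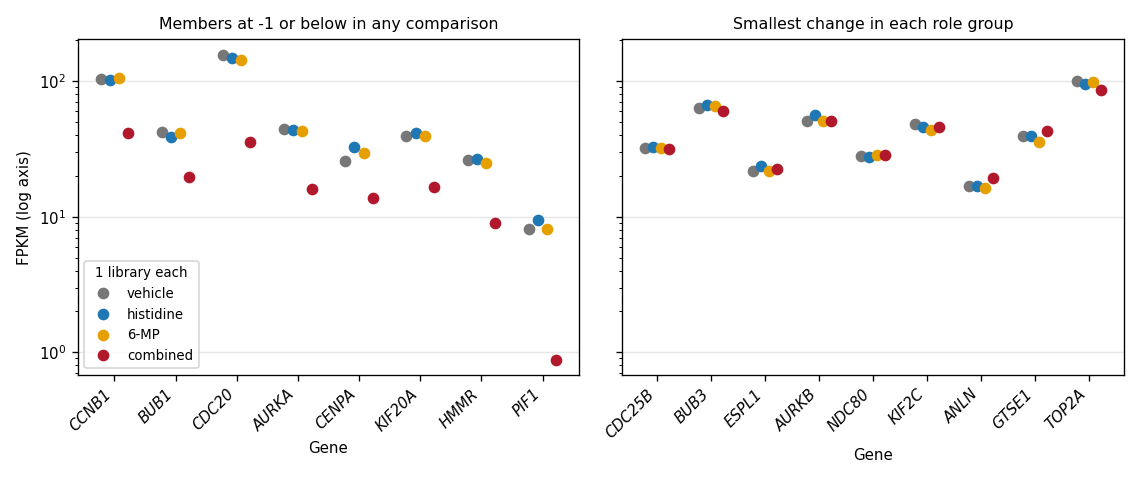
FPKM (log axis) in the vehicle, histidine, 6-MP and combined libraries, 1 library each, for the 8 members at a log2 fold change of -1 or less in any comparison of the combined treatment (left) and the member with the smallest change against vehicle in each of 9 role groups (right). On the left the combined library is lowest for every gene, from 41.5 for CCNB1 to 0.882 for PIF1, while on the right the 4 libraries lie close together.

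Among the Aurora kinases, the chromosomal passenger complex and NEK2, the A and B kinases behaved differently. AURKA (ENSG00000087586, chr20:56369389-56392337), the Aurora kinase of the spindle poles, had an FPKM of 44.3 with vehicle, 43.5 with histidine, 42.7 with 6-MP and 16.1 in the combined library. It fell in all 3 comparisons, with log2 fold changes of -1.41 against vehicle, -1.35 against 6-MP and -1.38 against histidine, and a log2 read ratio to vehicle of -1.46 (-1.59 to -1.33). AURKB (ENSG00000178999, chr17:8204733-8210600), the kinase of the passenger complex at centromeres, had an FPKM of 50.8 with vehicle, 56.2 with histidine, 50.6 with 6-MP and 50.9 in the combined library. For AURKB the vehicle, 6-MP and combined libraries were level, with a log2 read ratio of the combined treatment to vehicle of 0.0 (-0.1 to 0.11), and only histidine lay higher. With median ratio scaling, the log2 fold change of AURKB was -0.15 against vehicle, and the interval of its read ratio lay below 0. The partners of AURKB in the complex did not share its level values. CDCA8, which encodes borealin, had a log2 fold change of -0.81 against vehicle, INCENP, the scaffold, of -0.41, and BIRC5, which encodes survivin, of -0.38. TPX2, the activator of AURKA, was at -0.58 and NEK2, a centrosome kinase, at -0.37. For these 5 genes the intervals of the read ratio lay below 0 in all 3 comparisons.

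Of the 8 centromere and kinetochore genes, the combined library was lowest for 4 and highest for 3, of which NDC80 lay within counting error of vehicle. CENPA (ENSG00000115163, chr2:26764289-26801067), the histone H3 variant that marks centromeres, had an FPKM of 25.7 with vehicle, 32.7 with histidine, 29.5 with 6-MP and 13.7 in the combined library. It was higher with either agent alone than with vehicle, beyond counting error, and lowest with the combination. Its log2 fold change was -0.86 against vehicle, -1.05 against 6-MP and -1.2 against histidine. On the same strand 6.96% of its exon bases are shared with SLC35F6. CENPE, a kinetochore motor, and CENPF, a kinetochore protein that accumulates in G2, had log2 fold changes of -0.93 and -0.73 against vehicle. NDC80 (ENSG00000080986, chr18:2571557-2616635), the microtubule-binding core of the outer kinetochore, had an FPKM of 28.3 with vehicle, 27.5 with histidine, 28.5 with 6-MP and 28.7 in the combined library, and a log2 read ratio to vehicle of 0.02 (-0.09 to 0.13). With median ratio scaling, the read ratio of NDC80 was -0.14 and its interval lay below 0. NUF2, the partner of NDC80 in the same complex, was at a log2 fold change of -0.19. The SKA complex, which strengthens the hold of kinetochores on microtubules, lay on the other side. SKA3 had an FPKM of 24.7 with vehicle and with histidine, 27.0 with 6-MP and 31.2 in the combined library, and SKA1 of 1.04, 1.16, 1.06 and 2.35. For SKA1, at 43 to 88 reads per library, the log2 read ratio to vehicle was 1.18 (0.64 to 1.74), while the fold change on the log2(FPKM + 1) scale was 0.72 and was not called.

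SPC25, a further subunit of the NDC80 complex, followed no other member. It stood at an FPKM of 5.0 with vehicle, 8.12 with histidine and 2.39 with 6-MP, against 4.58 in the combined library, on 131, 230, 67 and 108 reads. The combined and vehicle libraries were near each other, and histidine and 6-MP lay far above and below them. The range over the 3 libraries other than the combined one was 1.43 on the log2(FPKM + 1) scale, the widest of all members, whose median range was 0.10.

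Of the 9 kinesins, KIF20A fell in all 3 comparisons and KIFC1 rose in 1. KIF20A (ENSG00000112984, chr5:138178719-138187723), a motor that carries the passenger complex to the central spindle, had an FPKM of 39.6 with vehicle, 41.8 with histidine, 39.1 with 6-MP and 16.7 in the combined library. The combined library was at 42.3% of vehicle, with a log2 fold change of -1.19 and a log2 read ratio of -1.24 (-1.36 to -1.13). KIFC1 (ENSG00000237649, chr6:33391823-33409896), a minus-end directed motor that clusters spindle poles, was at an FPKM of 4.52 with vehicle, 2.79 with histidine, 2.07 with 6-MP and 6.09 in the combined library. It was lower with either agent alone than with vehicle and highest with both, on 96 to 238 reads. Its log2 fold change was 1.21 against 6-MP, 0.9 against histidine and 0.36 against vehicle. On the opposite strand, 12.7% of its exon bases overlap RPL12P1, and whether reads were counted by strand is not stated in the sources used here. KIF2C (ENSG00000142945, chr1:44739818-44767767), the microtubule depolymerase MCAK, was at 48.1, 46.3, 43.7 and 45.7 with vehicle, histidine, 6-MP and the combined treatment, and its log2 read ratio to vehicle was -0.08 (-0.16 to 0.01). Of the other 6 kinesins, KIF14, which acts in cytokinesis, was at a log2 fold change of -0.78 against vehicle and KIF23, the central spindle motor MKLP1, at -0.41. KIF18A, KIF4A and KIF11 lay between -0.23 and -0.15, and KIF20B at 0.1.

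Cytokinesis was represented by 3 genes. ECT2 (ENSG00000114346, chr3:172750682-172821474), the exchange factor that activates RhoA at the cleavage furrow, had an FPKM of 17.0 with vehicle, 15.6 with histidine, 15.4 with 6-MP and 12.1 in the combined library, and a log2 fold change of -0.46 against vehicle. ANLN (ENSG00000011426, chr7:36389821-36453791), the furrow scaffold anillin, was highest in the combined library, at 19.4 against 16.9 with vehicle and with histidine and 16.2 with 6-MP. Its log2 read ratio to vehicle was 0.2 (0.09 to 0.3), and its log2 fold change with median ratio scaling was 0.04. PRC1 (ENSG00000198901, chr15:90966040-90995629), which bundles the microtubules of the central spindle, was listed at an FPKM of 0.569, 0.409, 0.401 and 0.477 on 34 to 45 reads and was not tested. A second annotated gene on the same strand (ENSG00000284946, chr15:90966190-91022566) covers 99.5% of the PRC1 span and was listed at 2.55, 3.12, 2.48 and 2.52. With 57.6% of the PRC1 exon bases shared on that strand, the reads of this locus cannot be assigned to PRC1 alone, and its low value is no measure of its expression.

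Of the 5 genes of the spindle pole and spindle assembly, HMMR fell in all 3 comparisons. HMMR (ENSG00000072571, chr5:163460203-163491941), a spindle protein and hyaluronan receptor that works with TPX2, had an FPKM of 26.3 with vehicle, 26.6 with histidine, 24.8 with 6-MP and 9.01 in the combined library. The log2 fold changes were -1.45, -1.36 and -1.46 against vehicle, 6-MP and histidine, and the combined library held 34.3% of the vehicle level. DLGAP5, a microtubule-binding target of AURKA, was at an FPKM of 39.4, 37.7, 39.9 and 20.2 with vehicle, histidine, 6-MP and the combined treatment. Its log2 fold changes of -0.93, -0.95 and -0.87 came near the threshold without passing it. ASPM, which organises spindle poles, and TACC3, which links spindle fibres, had log2 fold changes of -0.52 and -0.37 against vehicle. GTSE1 (ENSG00000075218, chr22:46296870-46330810), a microtubule-associated protein of G2 and mitosis, went the other way, with an FPKM of 39.6 with vehicle, 39.1 with histidine, 35.6 with 6-MP and 42.8 in the combined library and a log2 read ratio to vehicle of 0.11 (0.03 to 0.2), which turned to a log2 fold change of -0.04 with median ratio scaling.

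The last group holds chromosome proteins and regulators. PIF1 (ENSG00000140451, chr15:64815632-64825668), a DNA helicase that unwinds G-quadruplexes, had an FPKM of 8.06 with vehicle, 9.47 with histidine, 8.09 with 6-MP and 0.882 in the combined library. The combined library held 11.0% of the vehicle level, the lowest share of any member, on 53 reads against 537. The log2 read ratio was -3.19 (-3.63 to -2.78), while the log2(FPKM + 1) scale gave -2.27. TOP2A (ENSG00000131747, chr17:40388525-40417896), the topoisomerase that untangles sister chromatids, was at an FPKM of 101 with vehicle, 94.8 with histidine, 98.1 with 6-MP and 86.6 in the combined library. Its log2 read ratio to vehicle was -0.22 (-0.27 to -0.18), and MKI67, the proliferation marker Ki-67, had a log2 fold change of -0.23. CDCA2, which recruits a phosphatase to chromosomes at mitotic exit, was at -0.46. FOXM1, the transcription factor of many G2/M genes, was highest in the combined library, with an FPKM of 32.9, where vehicle had 27.8, histidine 27.6 and 6-MP 25.7. Its log2 read ratio to vehicle was 0.24 (0.15 to 0.33). With median ratio scaling, the read ratio of FOXM1 to vehicle was 0.09 and its interval no longer lay above 0. On the opposite strand, 15.9% of its exon bases overlap ITFG2.

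**Figure D3:**
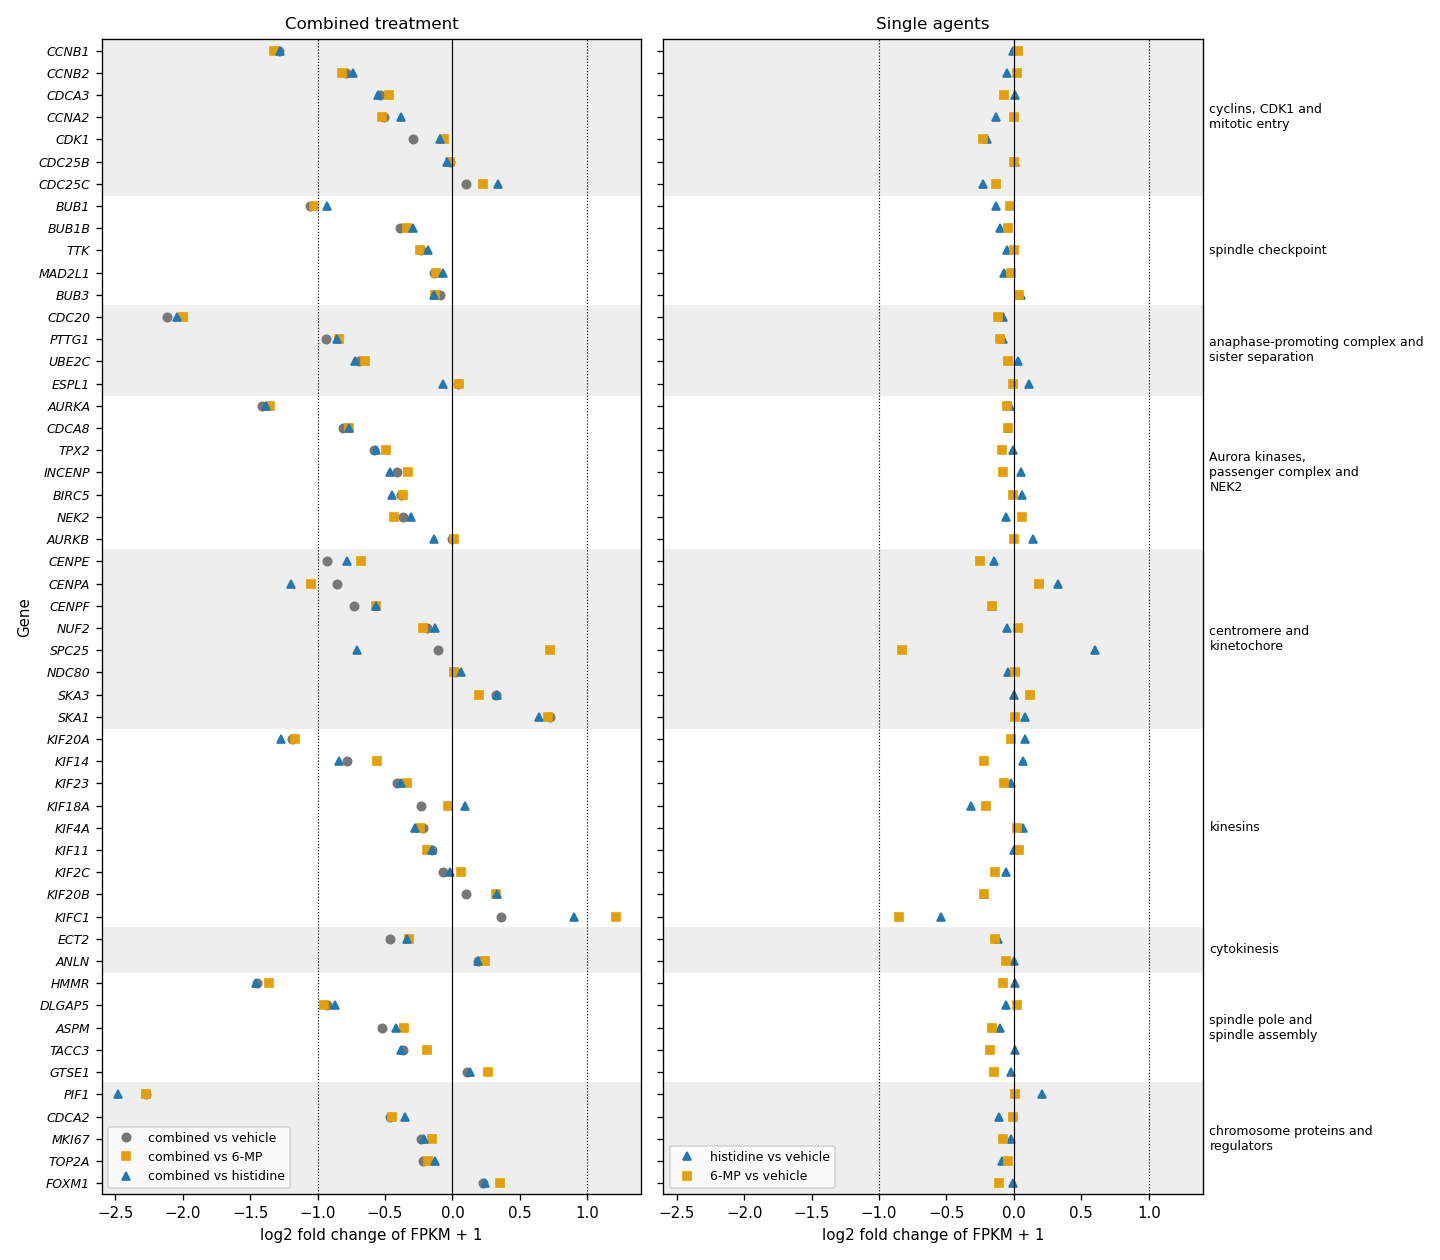
Log2 fold change (FPKM + 1) of the 52 tested mitotic G2/M genes, ordered by role group, for the combined treatment against vehicle, 6-MP and histidine (left) and for each agent alone against vehicle (right), 1 library per treatment, with dotted lines at -1 and 1. On the left most genes lie below 0, with PIF1 (-2.27) and CDC20 (-2.12) lowest against vehicle, and on the right no gene passes the threshold.

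Ratios between related members within a library do not depend on how the libraries were scaled. They were computed for 4 pairs chosen after the values had been seen, with intervals that cover counting error only. The FPKM ratio of AURKA to AURKB stood at 0.872 with vehicle, 0.773 with histidine, 0.844 with 6-MP and 0.316 in the combined library, which amounts to a log2 change against vehicle of -1.46 (-1.63 to -1.3). For KIF20A to KIF20B the ratio was 3.27, 4.08, 3.8 and 1.28 in the same order, with a log2 change of -1.35 (-1.52 to -1.19). For BUB1 to BUB1B it was 1.05, 1.03, 1.06 and 0.645, with a log2 change of -0.7 (-0.82 to -0.58). The smallest shift was that of CCNB1 to CCNB2, from 1.5, 1.53 and 1.5 to 1.06, with a log2 change of -0.5 (-0.63 to -0.37). The pairs set a member that fell past the threshold beside a related member that did not, so that a lower ratio in the combined library follows from their choice.

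**Figure D4:**
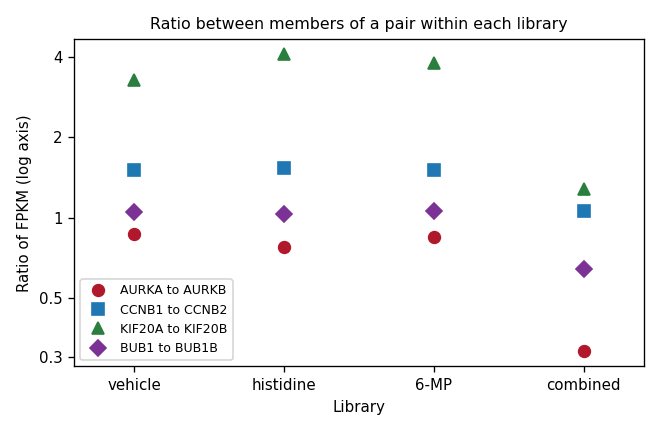
Ratio of FPKM (log axis) between the members of 4 pairs of related genes within each library, 1 library per treatment. The ratio is lowest in the combined library for every pair, as for AURKA to AURKB at 0.316 against 0.773 to 0.872 in the other libraries.

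On the log2(FPKM + 1) scale, neither agent alone moved a member past the threshold. With histidine against vehicle, 0 of 52 members were called (background 0.533% lower and 0.8% higher) and their median log2 fold change was -0.03. With 6-MP against vehicle, 0 were called (background 0.722% lower and 0.463% higher) and the median was -0.04. The count of 0 for 6-MP depends on the pseudocount of 1, since KIFC1 was at 45.7% and SPC25 at 47.7% of vehicle in FPKM, and 2 members were called lower with a pseudocount of 0.1, where 1.72% of all tested genes were. The interval of the read ratio included 0 for 32 members with histidine and for 30 with 6-MP. For 14 members it lay below 0 with histidine (background 8.74%) and for 20 with 6-MP (background 7.95%), and for 6 and 2 members it lay above 0 (backgrounds 13.0% and 10.0%). These backgrounds too are not matched to the members in depth. The range over the vehicle, histidine and 6-MP libraries exceeded 0.4 on the log2(FPKM + 1) scale in only 2 members, SPC25 and KIFC1, both at an FPKM below 10. The median range over the members was 0.1 on this scale, and the ranges of all tested genes were not computed. At the backgrounds above, a count of 0 called among 52 members says little.

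The design crosses histidine with 6-MP, so the departure from additivity was computed on the log2(FPKM + 1) scale, adding the combined and vehicle values and subtracting those of either agent alone. Its median was -0.25 over the 52 members and 0.11 over all tested genes. It was -1 or less in 7 members, namely CDC20 (-1.92), PIF1 (-2.48), CENPA (-1.39), HMMR (-1.38), AURKA (-1.33), CCNB1 (-1.31) and KIF20A (-1.25), where 1.91% of all tested genes reached this. It was 1 or more in 1 member, KIFC1 (1.75), where 4.85% of all tested genes reached this. Since the fold changes of the single agents were small, the value for most of these genes was near the fold change of the combined treatment. In CENPA both agents alone, and in PIF1 histidine alone, had read ratios to vehicle above 0 beyond counting error, and in KIFC1 both agents alone had read ratios below 0.

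Other genes of mitosis and of the cell cycle were counted beside the same backgrounds, 1.51% lower and 5.01% higher against vehicle, so that a count of 0 in lists of this size says little. Of 14 tested APC/C subunits, 0 were called in any comparison and their median log2 fold change against vehicle was -0.11. Of 19 condensin and cohesin genes, 0 were called, with a median of -0.03. Of 20 constitutive centromere and MIS12 complex genes, 0 were called, with a median of 0.29 against vehicle, and the combined library was the highest for 18 of them, as for 53.8% of all tested genes. Among 16 tested regulators of mitotic entry and exit, the median was -0.1 and CKS2, a CDK-binding protein named after its values had been seen, was called lower against 6-MP (-1.02) and histidine (-1.05). The 5 tested genes of MuvB and B-MYB had a median of 0.12, with 0 called. The 30 G1/S and replication genes had a median of 0.18, where that of all tested genes was 0.13, and they went both ways. The combined library was the highest for 18 of them and the lowest for 11, as for 53.8% and 28.8% of all tested genes. Among them UHRF1, which maintains DNA methylation, fell from an FPKM of 442 with vehicle, 436 with histidine and 440 with 6-MP to 183. CDT1, which licenses replication origins, rose from 47.4, 49.6 and 49.2 to 115. CCNE2, a cyclin of the G1/S transition, was called higher against 6-MP (1.03) and histidine (1.15). These medians are descriptions of lists of unequal size, and the difference between them was not tested.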

How the data were processed

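RNA-seq was analysed in 4 libraries of Reh-6-MPR cells, grouped by the treatment in the labels. Poly(A) RNA was prepared with a stranded kit, and a company sequenced and quantified it for the authors, whose deposited values are FPKM for each gene. Per the labels, Trimmomatic, HISAT2, Cufflinks and HTSeq were used with GRCh38 (hg38), while their settings and the annotation are not given in the sources used here. Reads were recovered from the FPKM steps and came out whole, within 0.01, for 29831 of 29833 genes. Their totals were 100.46% to 100.47% of the denominators. Since FPKM divides by the reads of the library, abundant genes that change shift all others.

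Fold changes were differences of log2(FPKM + 1) over the genes whose mean FPKM was 1 or more, called at 1 or more or -1 or less. Read ratios have exact Clopper-Pearson 95% intervals. A count model could not be run without replicates. The members, the role groups and the other gene lists were chosen with earlier results of these data known. Named with full values are members called in a comparison of the combined treatment, or otherwise the largest change of a role group, and the smallest change of each group. Other genes were named after their values had been seen. Alternatives were a pseudocount of 0.1, no filter, a mean FPKM of at least 5, median ratio and TPM scaling, recovered reads, thresholds of 0.5 and 1.5, and protein-coding genes. Exon overlaps were taken from GENCODE 29. Scripts were tested on simulated data in Python 3.11.15 with scipy 1.17.1, numpy 2.4.6, pandas 2.3.3 and matplotlib 3.10.9.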

Additional observations from a re-analysis of the deposited data

Results flagged for a closer look

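For 8 mitotic G2/M genes the read ratio for adding an agent had opposite signs without and with the other agent, with counting intervals that excluded 0 on both sides. With 1 library per treatment, none of these differences was tested against replicates. The share of all tested genes that meet this rule was not computed. The counts in this section therefore describe single genes and say nothing about the members as a set.

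For histidine, 6 genes met this. PIF1 had a log2 read ratio of 0.23 (95% interval 0.07 to 0.4) without 6-MP and -3.2 (-3.63 to -2.79) with it, a difference in log2 fold change of -2.48. CENPA had 0.35 (0.21 to 0.49) and -1.11 (-1.29 to -0.93), a difference of -1.39. KIFC1 had -0.69 (-1.02 to -0.37) and 1.56 (1.21 to 1.92), a difference of 1.75. KIF20B had -0.24 (-0.36 to -0.12) and 0.35 (0.23 to 0.47), a difference of 0.54, and CDC25C had -0.27 (-0.51 to -0.04) and 0.26 (0.03 to 0.5), a difference of 0.46. For BUB3 the values were small, 0.05 (0.01 to 0.1) and -0.13 (-0.18 to -0.08), with a difference of -0.18.

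For 6-MP, 5 genes met it. CENPA had 0.2 (0.05 to 0.34) without histidine and -1.26 (-1.44 to -1.08) with it, and KIFC1 had -1.13 (-1.5 to -0.77) and 1.13 (0.81 to 1.44). KIF20B had -0.24 (-0.36 to -0.12) and 0.35 (0.23 to 0.47). The differences of these genes, -1.39, 1.75 and 0.54, are the same as for histidine by construction. GTSE1 had -0.15 (-0.24 to -0.07) and 0.13 (0.05 to 0.22), a difference of 0.28, and FOXM1 had -0.12 (-0.21 to -0.02) and 0.25 (0.16 to 0.34), a difference of 0.36. With median ratio scaling of the intervals, an alternative chosen after seeing the data, 3 of the 11 cases no longer had intervals that excluded 0 on both sides. In CDC25C the log2 read ratio with 6-MP became 0.12 (-0.12 to 0.35), in BUB3 that without 6-MP became 0.03 (-0.01 to 0.08), and in GTSE1 that with histidine became 0.0 (-0.08 to 0.08). The other 8 cases, in CENPA, KIF20B, KIFC1, PIF1 and FOXM1, kept opposite signs.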

How the results depend on the processing

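No paired analysis was possible because there is a single library for every treatment, so that leaving out replicates did not apply either. No called fold change changed sign under these alternatives. Of the 57 fold changes of the genes named with full values, 9 changed sign with median ratio scaling and 1 with TPM scaling. Median ratio scaling, which lowers the combined library by 0.16 on the log2 scale against vehicle, gave 11 members lower against vehicle (2.16% of all tested genes) where 7 were reported (1.51%), and medians of -0.53 against vehicle, -0.47 against 6-MP and -0.47 against histidine. It also called CENPA against vehicle and BUB1 against histidine. A threshold of 0.5 gave 20, 17 and 19 members lower against vehicle, 6-MP and histidine (7.37%, 6.88% and 7.53% of all tested genes), and 1.5 gave 2 each, CDC20 and PIF1 (0.392%, 0.29% and 0.392%). For single agents, where 0 were reported, a threshold of 0.5 gave 2 members with histidine, 1 lower and 1 higher (backgrounds 1.93% and 2.93%), and 2 lower with 6-MP (2.44%). For 6-MP there were 2 with a pseudocount of 0.1 (1.72% lower), 1 with TPM scaling (3.16% lower) and 2 with recovered reads (1.88% lower). KIFC1 was called against histidine with a pseudocount of 0.1, TPM scaling and recovered reads, and was not tested at a mean FPKM of at least 5. The other 36 counts of members and 32 medians stayed near the reported values. In an alternative chosen after seeing the data, intervals after median ratio scaling lay below 0 in 43, 41 and 42 members (30.8%, 31.0% and 31.3% of all tested genes, not matched in depth). The cause of these shifts was not tested. Depth limits PIF1, SKA1, SPC25, KIFC1 and PRC1 most, with 96 reads or fewer in at least 1 library.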
